A study of Mus musculus with 10 samples.

Results

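The interferon response genes studied here are 39 genes that interferons switch on or that carry the interferon signal, and they were taken from a count table of 39017 mouse genes by matching the gene symbol. All 39 were present in the table, and all 39 were among the 16216 genes that had enough counts to be tested. RNA sequencing had been done on 10 lung tumours of male C57BL/6 mice, 5 of the control genotype KP and 5 of the genotype KPG1, whose Slc2a1 gene was homozygous floxed (fl/fl). Slc2a1 encodes the glucose transporter Glut1. In every mouse, tumours were started by an adenovirus given through the trachea (Ad5SPC-Cre), which makes Cre recombinase from the SPC promoter and so acts in cells that make surfactant protein C. Tumours were collected 18 weeks and 6 days later. The tissue was dissociated and cells with the leukocyte marker CD45 were removed with magnetic beads, so each library holds tumour cells together with other CD45-negative cells and whatever leukocytes were left. For the controls one label gives a heterozygous floxed Slc2a1 allele and another gives wild type, so the number of intact copies in KP is not settled here. The engineered changes behind tumour formation are left out of this account.

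Interferons are secreted proteins that warn cells of infection or damage. Type I interferons signal through a receptor whose kinases activate a complex that holds Stat2 and Irf9 and binds a DNA element known as the interferon-stimulated response element (ISRE). Interferon gamma acts mainly through a different element, the gamma-activated site (GAS). The genes switched on in this way encode sensors of viral nucleic acids, enzymes that block viral replication, GTPases that attack microbes inside cells, and parts of the machinery that shows peptides to T cells. In tumours, the same genes are often read as a measure of inflammation.

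The promoter sequences of the members were searched for the letters of these elements, which does not show which element controls a gene. RefSeq start sites on GRCm38.p6, the assembly that mm10 names, gave windows of 250 bases before to 50 bases after the start for 32 of the 39 members, and no window was used for Mx1, Mx2, Zbp1, Rtp4, Usp18, Tap2 and Oas2. The ISRE was searched as GAAANNGAAA on both strands. It was found in 16 of the 32 members and in 3.99% of the 27025 genes with a window. The GAS was searched as TTCNNNGAA, which reads the same on both strands. It was found in 11 of 32 members (34.4%), against 9.55% of all genes with a window. Bst2, Gbp5, Gbp7, Igtp and Oas1a held both motifs. The RefSeq window of Gbp5 lies far upstream of the gene start that GENCODE gives (142594847 on chromosome 3), so its matches may not belong to the transcript counted here. Neither was found in the windows of Cd274, Cmpk2, Ifi44, Irf7, Irf9, Oasl1, Oasl2, Psmb9, Trim25 and Xaf1. ISRE and GAS matches shared bases in 1 window, that of Bst2.

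Stretches of 7 promoters show these letters in members that stand for the main roles, each 5′ to 3′ in the direction of the gene, with motif bases in capitals. Irf8 and Isg20 are shown because they were 2 of the 4 members with an unadjusted p under 0.05 between the genotypes, and each carries GAS letters without an ISRE. The other 2, Oasl1 and Irf7, held neither motif. Irf1, Ifit2, Psmb8 and Ifi35 also held GAS letters without an ISRE. Their log2 fold changes of KPG1 against KP were -0.27, -0.13, 0.10 and -0.04. Irf8 (chr8:120736173-120736262, plus strand, 185 to 96 bases before the start) holds 2 GAS matches, and the stretch lies within the gene model Gm20388 but in none of its exons. Isg20 (chr7:78913337-78913423, plus strand) holds 1 GAS match. Isg15 (chr4:156200821-156200910, minus strand) and Ifit1 (chr19:34640771-34640860, plus strand) are classical targets of type I interferon and hold 3 and 2 ISRE matches, which in Isg15 run into each other. Bst2 (chr8:71537533-71537622, minus strand), Gbp7 (chr3:142530216-142530305, plus strand) and Igtp (chr11:58199497-58199555, plus strand) are shown because both motifs stand side by side. None of the 7 stretches overlapped an annotated exon.
Irf8: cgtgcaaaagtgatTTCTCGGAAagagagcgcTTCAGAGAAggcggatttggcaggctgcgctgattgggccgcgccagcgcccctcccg
Isg20: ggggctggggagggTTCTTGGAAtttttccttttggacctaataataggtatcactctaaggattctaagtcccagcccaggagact
Isg15: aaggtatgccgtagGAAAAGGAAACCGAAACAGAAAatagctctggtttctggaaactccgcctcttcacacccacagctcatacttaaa
Ifit1: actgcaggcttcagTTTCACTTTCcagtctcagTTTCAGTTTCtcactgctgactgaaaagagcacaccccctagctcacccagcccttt
Bst2: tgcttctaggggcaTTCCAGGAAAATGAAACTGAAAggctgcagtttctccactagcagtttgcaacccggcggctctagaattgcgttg
Gbp7: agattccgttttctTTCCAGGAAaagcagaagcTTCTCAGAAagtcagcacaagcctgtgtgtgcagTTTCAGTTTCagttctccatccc
Igtp: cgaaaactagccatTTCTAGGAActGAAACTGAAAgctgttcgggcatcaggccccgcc

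**Figure D1:**
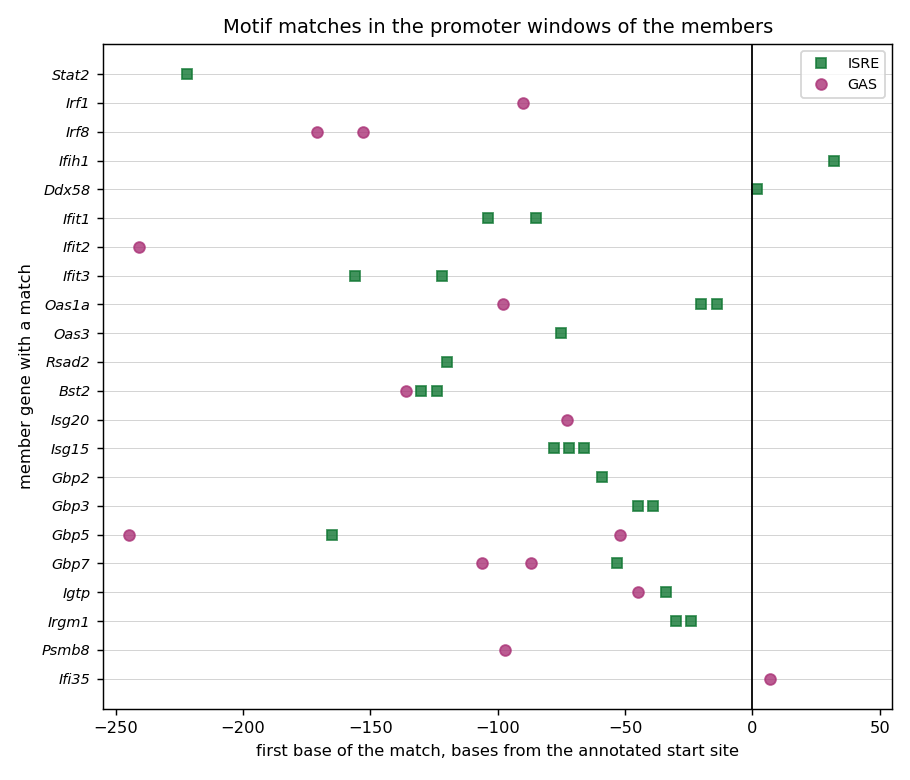
Position of ISRE letters (squares) and GAS letters (circles) in the promoter windows of the members with a match; the x axis gives the first base of the match relative to the RefSeq start site, in bases, and each line is 1 gene. Most ISRE matches lie within 156 bases before the start. The Irf8 and Isg20 windows hold circles only, as do those of Irf1, Ifit2, Psmb8 and Ifi35.

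The log2 fold change of KPG1 against KP had a median of 0.06 over the 16 members with an ISRE match and of -0.08 over the 16 members with a window and no such match. For the GAS letters the medians were -0.04 with a match (11 members) and 0.01 without (21 members). These medians are descriptions, with no test, and a match of letters is not a bound site.

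The libraries held 32427029 to 49534284 counts. Levels are given as CPM, the counts of a gene scaled to a fixed library size with TMM factors, or as log2 CPM. The targeted gene Slc2a1 stood at 71.7 to 127 CPM in KP and at 40.8 to 66.8 CPM in KPG1, with no overlap (exact permutation p 0.00794, the smallest that 252 rearrangements can give), and its adjusted p over all genes in limma was 0.0675. In the first principal component of all genes KP 1 and KP 5 lay at the opposite ends, at -74 and 71.8. For some genes, values without these libraries are given as well, but not for every gene that they moved. Markers of alveolar type 2 cells and tumour epithelium, among them the general epithelial genes Epcam, Cdh1, Krt8 and Krt18, were abundant in every library. The sum over these 12 markers was 22700 CPM in KP 1 and 31000 to 84100 CPM in the others.

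Across the whole module, most members stood near the control level in KPG1 tumours. The fitted log2 fold change was above 0 for 19 members and below 0 for 20, and its median was -0.01, beside 0.02 over all genes tested. For 32 of 39 members (82.1%) it was smaller than 0.5 in either direction, beside 80.5% of all genes tested. None of the 39 passed an adjusted p of 0.05 in limma-voom, where 0.173% of all genes tested did so. At an unadjusted p under 0.05, 4 members stood lower in KPG1 (Irf8, Oasl1, Irf7 and Isg20) and none stood higher. Among all genes 6.31% were lower and 5.26% higher by that rule, beside 10.3% of the members lower and none higher. The groups did not overlap for 2 members, Irf8 and Oasl1, both lower in KPG1 (5.13% of the members), where 1.76% of all genes were lower without overlap and 2.81% did not overlap in either direction. For 22 of the 39 members the 95% interval of the difference lay within 2-fold either way, beside 10894 of the 16216 genes tested. For the other 17 the interval reached past 2-fold.

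**Figure D2:**
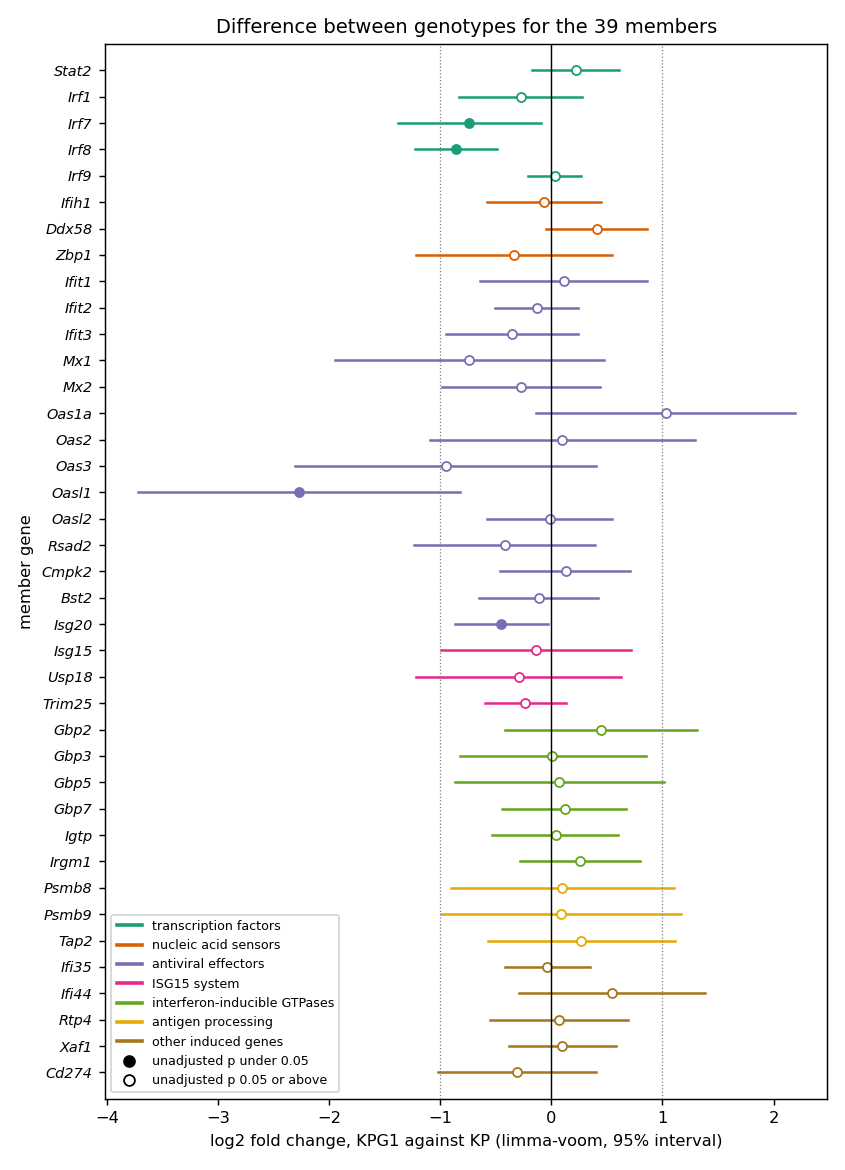
Fitted log2 fold change of KPG1 against KP for each of the 39 members (points) with its 95% interval from limma-voom (lines), coloured by role; filled points have an unadjusted p under 0.05, and dotted lines mark 2-fold either way. Irf8, Oasl1, Irf7 and Isg20 are the filled points, all left of 0, while all other intervals cross 0.

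The tool and the libraries used decided whether any member was called. DESeq2 called 2 members lower, Irf8 (adjusted p 7.68e-05) and Oasl1 (adjusted p 4.73e-05), where it called 2.62% of all genes lower. Limma with a weight per library called Irf8 alone (adjusted p 0.0229), beside 1.09% of all genes. Without KP 5, limma called Irf8 (adjusted p 0.0335) and Oasl1 (adjusted p 0.0391), beside 1.35% of all genes. With KP 1 and KP 5 both left out, chosen after seeing the data, no member was called, beside 0.264% of all genes called lower, and Irf8, Irf7 and Oasl1 had adjusted p-values of 0.0747, 0.0839 and 0.0846. The edgeR quasi-likelihood test called none, beside 0.179% of all genes called lower. No fit called a member higher.

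Irf8 is a transcription factor best known for directing the development of macrophages, dendritic cells and B cells, and interferon gamma induces it. Irf8 (ENSMUSG00000041515, chromosome 8, 120736358 to 120756694, plus strand, mm10) stood at 15.9, 17.4, 15.7, 12.9 and 13.2 CPM in KP 1 to KP 5. In KPG1 1 to KPG1 5 it stood at 8.57, 8.45, 9.61, 8.69 and 5.88 CPM. Every KPG1 tumour was thus below every KP tumour, and the KP values lay close together. KP averaged 15 ± 1.93 CPM (SD, n = 5), whereas KPG1 averaged 8.24 ± 1.4 CPM (SD, n = 5). The log2 fold change was -0.86 (SE 0.17, 95% interval -1.23 to -0.49, adjusted p 0.0700 in limma), the smallest adjusted p among the members. Over all fits that left out 1 library it stayed between -0.92 and -0.74, with adjusted p-values from 0.0335 to 0.205. The overlapping gene model Gm20388 on the same strand held no count in any library.

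Irf8 is made mainly by leukocytes, so the leukocyte content of the CD45-depleted cells stands beside it. Of 27 leukocyte markers, 18 were tested, and 4 were lower in KPG1 at an unadjusted p under 0.05 (Itgam, S100a8, S100a9 and Csf3r, genes of neutrophils and other myeloid cells) and none higher. These 4 were 22.2% of the markers tested, beside 6.31% of all genes. In either direction, DESeq2 called 3 of the 18 markers and 548 of the 16216 genes tested. Itgam stood at 6.15 to 16.6 CPM in KP and at 2.51 to 5.80 CPM in KPG1, with no overlap, and S100a8 and S100a9 did not overlap either. These 3 were 16.7% of the markers tested, beside 1.76% of all genes lower without overlap. Ptprc, the gene of CD45 itself, stood at 5.21 to 9.98 CPM in KP and at 5.42 to 11 CPM in KPG1, with overlap. The summed level of the markers other than Lyz2, which alveolar type 2 cells also make, was 97.8 to 193 CPM in KP and 72.2 to 129 CPM in KPG1. Siglech, a marker of plasmacytoid dendritic cells, had at most 6 counts in a library. In bulk RNA, fewer leukocytes and less Irf8 RNA per cell cannot be told apart, and the part of the leukocytes in the Irf8 difference was not tested.

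Among the other transcription factors, Irf7 amplifies the type I interferon response, and its own gene is a target of that response. Irf7 (chromosome 7, 141262706 to 141266481) stood at 7.70, 20.5, 14, 12 and 8.04 CPM in KP 1 to KP 5 and at 9.59, 7.55, 6.03, 4.89 and 6.65 CPM in KPG1 1 to KPG1 5. KP 2, KP 3 and KP 4 lay above all KPG1 tumours, whereas KP 1 and KP 5 lay among them. The log2 fold change was -0.74 (SE 0.29, unadjusted p 0.0282, adjusted p 0.366), and without KP 1 and KP 5 it was -1.14. Irf7 lies opposite Phrf1 on the other strand. Stat2, Irf9 and Irf1, the signal carriers, had log2 fold changes of 0.22, 0.03 and -0.27. Irf9 varied least of the factors, between 34.5 and 44.3 CPM, and its 95% interval was -0.21 to 0.27. Irf9 overlaps Rnf31 on the same strand, and the later members Igtp and Psmb9 overlap Irgm2 on the same strand and Tap1 on the other, so reads shared there are uncertain.

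The sensors of nucleic acids in the module are Ifih1 (MDA5), Ddx58 (RIG-I) and Zbp1, which recognise viral RNA or left-handed nucleic acids. Ddx58 stood at 21.9, 46.0, 32.0, 24.2 and 36.5 CPM in KP and at 50.2, 42.4, 39.4, 43.2 and 30.8 CPM in KPG1. KP 2, KP 3 and KP 5 lay inside the KPG1 range, and the log2 fold change was 0.41 (SE 0.21, adjusted p 0.484). Zbp1 was scarce, at 0.869, 3.14, 1.16, 1.68 and 2.73 CPM in KP and 1.49, 2.20, 1.54, 0.829 and 1.00 CPM in KPG1. Its log2 fold change was -0.34 (adjusted p 0.791). Ifih1 was highest in KP 5 and lay between 33.6 and 58.8 CPM in the other tumours, with a log2 fold change of -0.07.

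The antiviral effectors were the largest group, with 14 genes, of which 4 were fitted higher and 10 lower (median log2 fold change -0.20). Oasl1 showed the largest fitted difference of the module. It resembles the 2-5A synthetases and holds back translation of Irf7 in mice. Oasl1 (ENSMUSG00000041827, chromosome 5, 114923240 to 114937915, plus strand) stood at 16.9, 3.93, 9.66, 23.4 and 2.57 CPM in KP 1 to KP 5. In KPG1 it stood at 1.16, 2.28, 2.06, 1.74 and 1.67 CPM, all below the lowest KP tumour. The gap between the groups was small, from 2.28 CPM in KPG1 2 to 2.57 CPM in KP 5, while KP 1 and KP 4 carried most of the KP mean. The log2 fold change was -2.27 (SE 0.66, 95% interval -3.72 to -0.82, unadjusted p 0.00528, adjusted p 0.234). Over the fits that left out 1 library it ranged from -2.74 to -1.87, with adjusted p-values from 0.0391 to 0.442. Oasl1 lies opposite the gene model Gm13822.

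Oasl2 is the neighbouring gene of the same family (chromosome 5, 114896936 to 114912234) and did not share this pattern. Oasl2 stood at 4.87 to 10 CPM in KP and 5.57 to 11.8 CPM in KPG1, with a log2 fold change of -0.01 (95% interval -0.58 to 0.55). Within a tumour, the log2 CPM of Oasl1 minus that of Oasl2 was 1.78, -1.11, -0.05, 1.26 and -1.44 in KP 1 to KP 5. In KPG1 it was -3.29, -1.61, -1.90, -1.65 and -2, below every KP tumour. This pair was set side by side after the values were seen, and the contrast has no test.

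Isg20, an RNA-degrading exonuclease, stood at 22.8, 46.7, 27.7, 23.8 and 29.6 CPM in KP and at 20.4, 25.0, 18.4, 21.3 and 21.3 CPM in KPG1. KP 2 was highest, and KPG1 2 lay above KP 1 and KP 4. The log2 fold change was -0.45 (SE 0.19, unadjusted p 0.0385, adjusted p 0.397). Oas1a, a 2-5A synthetase that activates RNase L, had the largest fitted difference upward. It stood at 0.700, 2.67, 2.48, 1.35 and 0.344 CPM in KP and at 4.55, 2.38, 1.95, 2.03 and 1.54 CPM in KPG1. KP 2 and KP 3 exceeded 4 of the 5 KPG1 tumours, and the log2 fold change of 1.03 (SE 0.53, adjusted p 0.489) fell to 0.17 without KP 1 and KP 5. Oas1a is 97.6% identical to Oas1g over 1861 bases, so its counts are uncertain.

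Mx1, of the dynamin-like GTPase family, ranged more than any other effector apart from Oasl1. It stood at 11.5, 35.0, 8.28, 8.19 and 8.68 CPM in KP and at 1.79, 11.6, 9.63, 12.2 and 7.42 CPM in KPG1. KP 2 was far above and KPG1 1 far below the remaining 8 tumours, and the log2 fold change was -0.74 (SE 0.55, adjusted p 0.637). Mx1 and Mx2 share 843 bases at 95.3% identity, and the annotation lists Mx2 as a polymorphic pseudogene. The other effectors were Ifit1, Ifit2, Ifit3, Mx2, Oas2, Oas3, Rsad2, Cmpk2 and Bst2. Their log2 fold changes ran from -0.95 for Oas3 to 0.13 for Cmpk2, with adjusted p-values of 0.582 to 0.961. Ifit3 is 97.8% identical to Ifit3b over 1700 bases and is uncertain in the same way as Oas1a.

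Isg15 is a ubiquitin-like protein that is attached to other proteins, Trim25 ubiquitinates RIG-I and can attach Isg15, and Usp18 removes Isg15 and damps the type I receptor. All 3 were fitted lower, none past the threshold. Usp18 stood at 2.90, 6.54, 5.50, 3.12 and 1.24 CPM in KP and at 4.22, 2.22, 2.49, 2.60 and 2.08 CPM in KPG1. Its KP values spanned the whole KPG1 range, and its log2 fold change was -0.29 (adjusted p 0.832), or -0.85 without KP 1 and KP 5 (adjusted p 0.234). Trim25 stood at 97.4, 96.6, 117, 173 and 140.0 CPM in KP and at 115, 96.1, 106, 101 and 99.0 CPM in KPG1, with a log2 fold change of -0.24 (adjusted p 0.615). Isg15 ranged from 1.15 to 4.78 CPM in KP and from 1.39 to 2.40 CPM in KPG1 (log2 fold change -0.14). Per kilobase of exon, Trim25 was the most abundant member, at 19.9 CPM per kilobase over all libraries, followed by Irf1 (17.4) and Bst2 (16.6), and Oas3 was the least abundant (0.162).

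The interferon-inducible GTPases attack vacuoles that hold microbes, and guanylate-binding proteins (Gbp) are strong targets of interferon gamma. All 6 (Gbp2, Gbp3, Gbp5, Gbp7, Igtp and Irgm1) were fitted slightly higher, with log2 fold changes of 0.01 to 0.45 and adjusted p-values of 0.698 to 0.993. Gbp2 stood at 18.5, 15.2, 13.1, 13.1 and 3.72 CPM in KP and at 18.7, 16, 9.88, 12.7 and 20.9 CPM in KPG1. KP 5 was low for Gbp2, Gbp3 and Gbp5, and the remaining KP tumours lay among the KPG1 tumours. Irgm1 stood at 11.7, 26.6, 26.1, 25.4 and 30.8 CPM in KP and at 30.2, 32.2, 23.3, 31 and 22 CPM in KPG1. Here KP 1 was the low tumour, and without KP 1 and KP 5 the log2 fold changes of Gbp2 and Irgm1 were 0.12 and 0.06.

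Psmb8 and Psmb9 are subunits of the immunoproteasome, and Tap2 is a chain of the transporter that carries peptides to MHC class I molecules. These 3 genes are neighbours on chromosome 17 and had their extremes in the same tumours. Psmb8 stood at 10.2, 37.5, 32.8, 28.7 and 83.3 CPM in KP and at 46.4, 42.0, 33.7, 32.1 and 19.9 CPM in KPG1. Tap2 stood at 13.4, 42.9, 38.7, 19.9 and 58.7 CPM in KP and at 48.2, 43.7, 37.6, 38.6 and 20.8 CPM in KPG1. KP 1 was the lowest and KP 5 the highest of the 10 tumours for all 3 genes, so the KP group enclosed the KPG1 group. The log2 fold changes were 0.10, 0.09 and 0.27 for Psmb8, Psmb9 and Tap2, and each of the 3 turned below 0 in some fits. Without KP 1 and KP 5 the Psmb8 and Tap2 values were 0.03 and 0.19.

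The remaining members have mixed or less known roles. Cd274 encodes PD-L1, the ligand that restrains T cells. It stood at 12.7, 8.45, 9.01, 8.83 and 3.38 CPM in KP and at 6.58, 7.32, 5.53, 4.94 and 7.01 CPM in KPG1. In 4 of the 5 KP tumours Cd274 exceeded every KPG1 tumour, but KP 5 was the lowest of all, and the log2 fold change was -0.31 (SE 0.32, adjusted p 0.747), or -0.51 without KP 1 and KP 5. Ifi44 stood at 2.49, 4.84, 3.16, 3.09 and 1.03 CPM in KP and at 6.29, 3.70, 3.10, 2.86 and 3.47 CPM in KPG1, and its log2 fold change of 0.55 (adjusted p 0.614) was 0.06 without KP 1 and KP 5. Ifi35, Rtp4 and Xaf1, a pro-apoptotic partner of XIAP, had log2 fold changes of -0.04, 0.07 and 0.10.

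**Figure D3:**
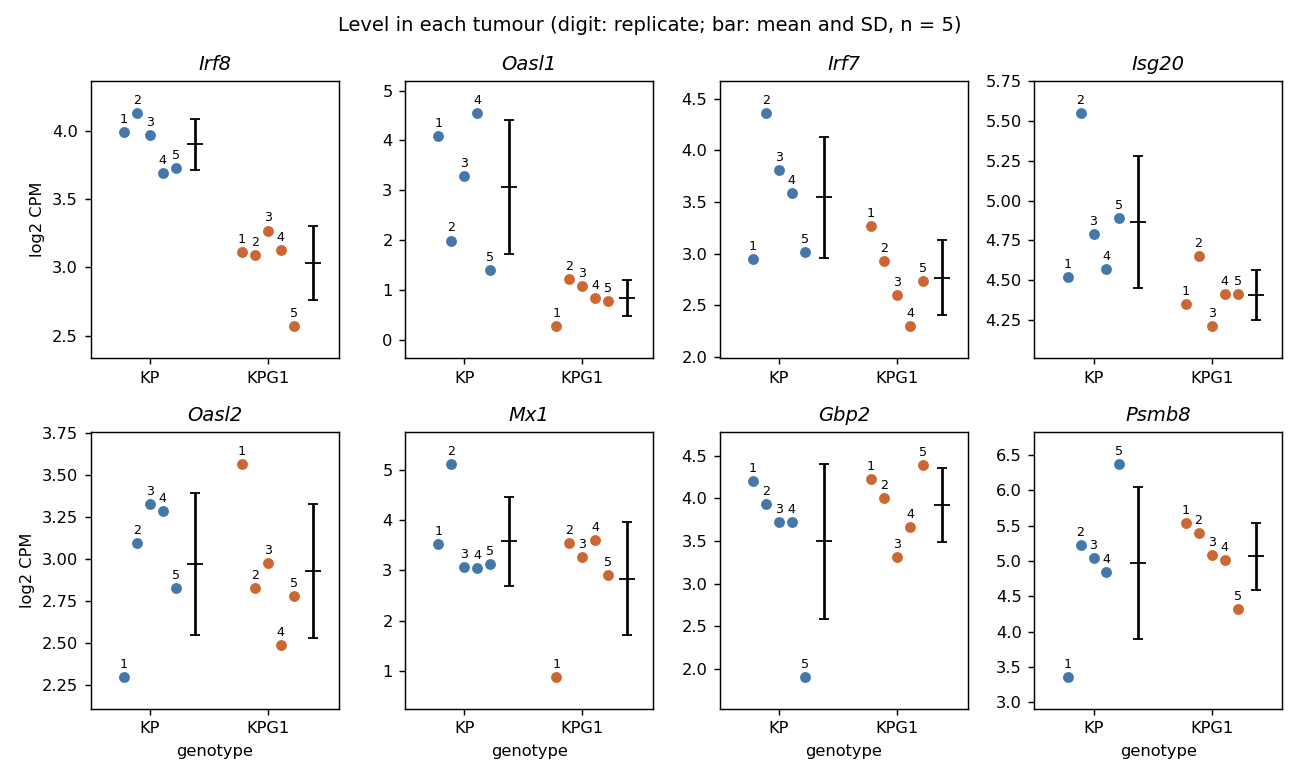
Log2 CPM of 8 members in each of the 10 tumours, with KP in blue and KPG1 in orange, the replicate number at each point, and the mean and SD (n = 5) as black bars; axes differ between panels and do not start at 0. Irf8 and Oasl1 separate the groups, Irf7 and Isg20 overlap, Oasl2 has group means of 2.97 and 2.93, and single tumours stand apart for Mx1 (KP 2 and KPG1 1), Gbp2 (KP 5) and Psmb8 (KP 1 and KP 5).

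Single tumours stood apart for many members at once. KP 2 was the highest of the 10 tumours for 13 of 39 members (33.3%, where it was highest for 6.68% of all genes) and the lowest for none. These 13 were Irf7, Irf8, Zbp1, Ifit1, Mx1, Mx2, Oas3, Rsad2, Bst2, Isg20, Isg15, Usp18 and Rtp4. Oasl1, at 3.93 CPM in that tumour, lay below its level in KP 1, KP 3 and KP 4. KPG1 1 was highest for 9 members (23.1%, beside 11.2% of all genes), among them Stat2, Irf1, Ddx58, Oas1a and Gbp5, and lowest for Mx1 and Oasl1.

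KP 1 and KP 5 stood low for different members. KP 1 was lowest for 12 members (30.8%, beside 16.7% of all genes), including Psmb8, Psmb9, Tap2, Igtp, Irgm1 and Stat2. KP 5 was lowest for 11 members (28.2%, beside 20.2% of all genes), including Ifit1, Oas1a, Oas2, Rsad2, Isg15, Usp18, Gbp2, Gbp3 and Gbp5, and highest for Ifih1, Cmpk2, Psmb8, Psmb9 and Tap2 (12.8%, beside 22.2% of all genes). Relative to each gene's mean over the 10 libraries, the median log2 deviation in KP 5 was 1.15 for the antigen processing genes and 0.83 for the sensors, but -0.80 for the GTPases and -0.79 for the Isg15 system. In KP 1 it was -1.66 for antigen processing and 0.49 for the GTPases. The GTPases were split, since Igtp and Irgm1 went against the Gbp genes, at 0.33 and 0.30 in KP 5 and at -0.73 and -1.10 in KP 1. Trim25, at 0.32 in KP 5, went against Isg15 and Usp18.

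**Figure D4:**
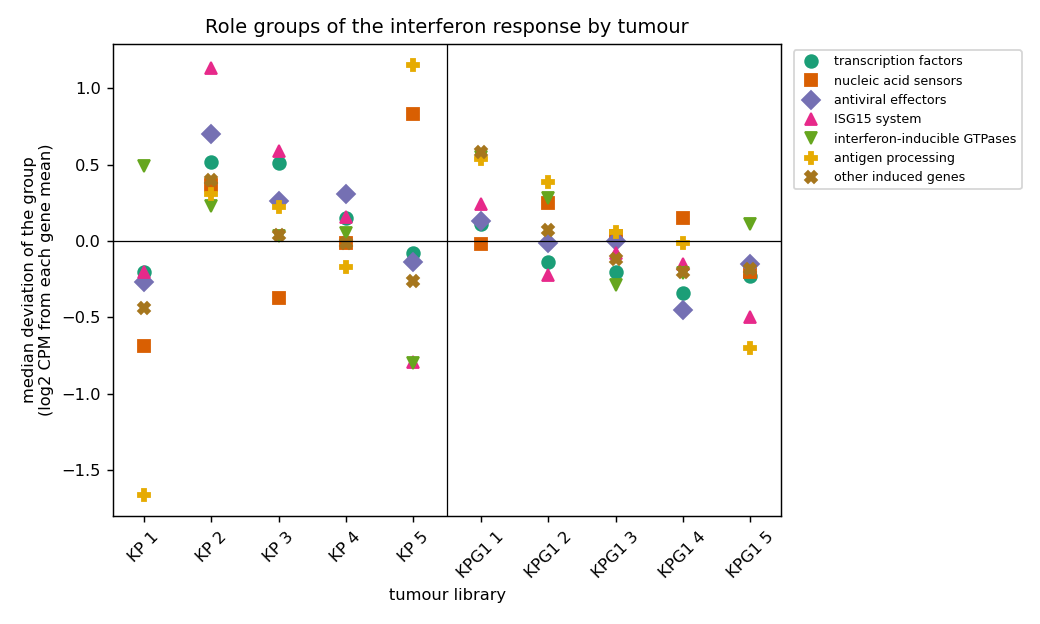
Median deviation of each role group of members in each tumour, as log2 CPM minus each gene's mean over the 10 libraries; each symbol is 1 role group, and the vertical line divides KP from KPG1. In KP 5 the medians of antigen processing (1.15) and the GTPases (-0.80) lie far apart. The KPG1 medians reach 0.58 in KPG1 1 (other induced genes) and -0.70 in KPG1 5 (antigen processing), while those of KP 4 run from -0.17 to 0.31.

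**Figure D5:**
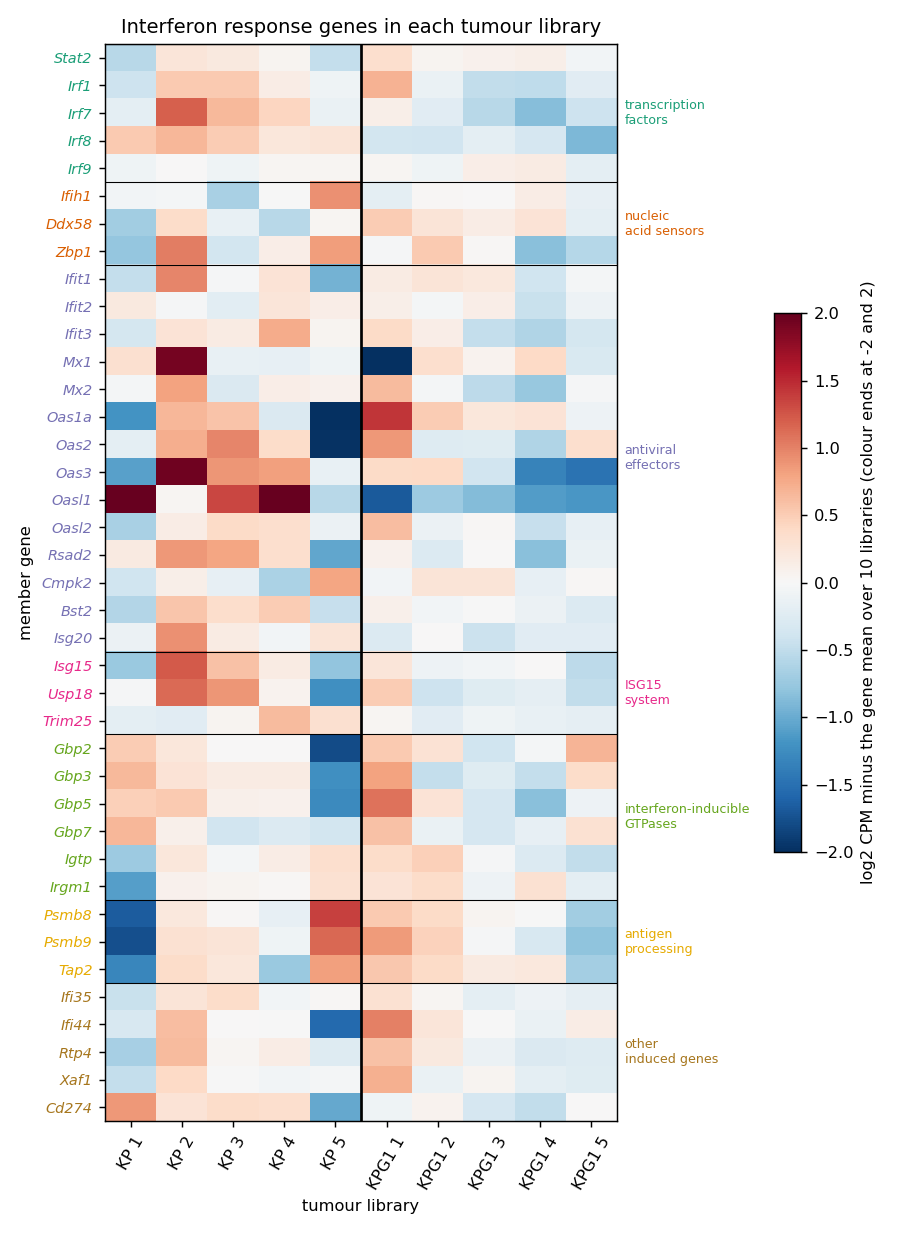
Log2 CPM of each member in each tumour minus its mean over the 10 libraries, from blue (lower) to red (higher), with colours ending at -2 and 2; rows are genes grouped by role, and the vertical line divides KP from KPG1. The Irf8 row changes colour at the line, Oasl1 is blue in every KPG1 tumour but also in KP 5, red fills much of KP 2, and KP 1 and KP 5 show opposite colours for Psmb8, Psmb9 and Tap2.

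Endothelial cells express several Gbp genes and stay in the CD45-negative fraction. The summed level of 10 endothelial markers was lowest in KP 5 (335 CPM) and highest in KPG1 1 (1620 CPM), and lay between 509 and 1140 CPM in the others. Gbp3 and Gbp5 were also lowest in KP 5 and highest in KPG1 1. Gbp2 was lowest in KP 5 but highest in KPG1 5, and Gbp7 was lowest in KP 3 and highest in KP 1. All 10 markers were fitted above 0, none with an unadjusted p under 0.05. The part of endothelial cells in the Gbp values was not tested.

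The spread within KP was wide. The SD of log2 CPM was larger in KP than in KPG1 for 31 of 39 members (79.5%), with medians of 0.56 and 0.38. Among all genes the share was 73.5%, so the members were near the background. Without KP 1 and KP 5 the KP spread was larger for 15 members (38.5%), beside 52.7% of all genes.

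The ligands of the pathway had few counts or none. Of 21 interferon genes, 10 had no count in any library, which allows up to 3 counts, or 0.0606 to 0.0925 CPM depending on depth. The other 11 (Ifna5, Ifna6, Ifna7, Ifna16, Ifnab, Ifnb1, Ifne, Ifnk, Ifng, Ifnl3 and Ifnz) had 51 counts in all and at most 4 in a library, and none could be tested. Ifne, the interferon of epithelia, had 16 counts over the 10 libraries, Ifnb1 had 5, and Ifng had 9. These limits cover counting error only. Near-identical copies were not searched for the ligands, so reads lost between alike genes are not covered. T and NK cells, the main source of interferon gamma, are leukocytes, which the CD45 beads depleted before sequencing. The sum over 9 effector markers was 1.82 to 4.75 CPM in KP and 1.84 to 3.53 CPM in KPG1. Because of the depletion, this low level does not describe the whole tumour, and the same holds for ligand RNA made by leukocytes.

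The receptors and their kinases were well expressed. Of these 10 genes none passed the threshold, and 8 were fitted lower. Ifngr1, a chain of the interferon gamma receptor, stood at 71.9, 71.3, 87.0, 114 and 85.3 CPM in KP and at 65.3, 69.8, 62.6, 61.9 and 64.8 CPM in KPG1. The groups did not overlap, and the log2 fold change was -0.39 (SE 0.14, unadjusted p 0.0164, adjusted p 0.316). Ifnlr1, a receptor chain for lambda interferons, had -0.36 (adjusted p 0.363).

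In the wider pathway, 113 of 146 matched genes outside the module were tested, and none passed the threshold in limma. Of the 113, 56 were fitted higher and 57 lower (median -0.01), and 4 higher and 7 lower had an unadjusted p under 0.05, beside 5.26% and 6.31% of all genes. None of the 15 sensing genes tested, among them Tlr3, Mavs and Tbk1, had an unadjusted p under 0.05. Of the 13 negative regulators tested, Rnaseh2a (-0.43, unadjusted p 0.0167) and Irf2bp2 (-0.37, unadjusted p 0.0357) did. Among 75 further induced genes, 3 were higher and 3 lower at an unadjusted p under 0.05. The smallest p-values were those of Slfn9 (1.21, unadjusted p 0.00487), Slfn8 (1.17, unadjusted p 0.0115) and Epsti1 (1.44, unadjusted p 0.0183). All of these were fitted higher, with adjusted p-values of 0.234, 0.282 and 0.328. Slfn9 stood at 2.36, 11.3, 9.79, 7.67 and 4.32 CPM in KP and at 14.3, 15.2, 14.7, 11.3 and 13.9 CPM in KPG1, with KP 2 just inside the KPG1 range. DESeq2 called 1 of these genes, the chemokine Cxcl10 (adjusted p 0.0151), named here because of that call. Cxcl10 stood at 50.6 CPM in KP 1, at 3.42 to 9.5 CPM in the other KP tumours and at 1.23 to 5.06 CPM in KPG1, and its log2 fold change in limma was -1.68 (adjusted p 0.396). It was -1.05 without KP 1, -2.08 without KP 5 and -1.35 without both.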

How the data were processed

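RNA was sequenced from 10 CD45-negative lung tumour fractions, 5 KP and 5 KPG1. Per the labels and the study's methods, a stranded mRNA kit and reads from one end were used. The processing notes of the submitters name bcl2fastq 2.17, cutadapt 1.4.2, HISAT2, featureCounts 1.4.4, edgeR and mm10. Strand setting and annotation release are not given in the sources used here, so reads of overlapping genes on opposite strands cannot be told apart. The deposited counts are whole reads per Ensembl gene, not normalized. All 390170 values of the joint table equalled the single files. The authors also deposited log2 values (log2 of the count plus 0.5 per scaled library size), which were checked and not tested.

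The members and lists were chosen with earlier results of these data known. The filter filterByExpr (edgeR 4.0.16) left 16216 genes in place of the TPM filter that the study applied. TMM factors, voom and limma 3.58.1 (R 4.3.3) were fitted with genotype as the only term, two-sided, and p-values were adjusted by Benjamini-Hochberg over all genes tested, with a threshold of 0.05. Log2 CPM used a prior count of 2. Alternatives were DESeq2 1.42.0, the edgeR quasi-likelihood test, RLE and upper-quartile factors, other filters (none, or a mean CPM of at least 20), library weights, a replicate block, sample number as covariate, and leaving out libraries. Fits were tested on simulated data.

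Members named with values in every library were those with an unadjusted p under 0.05, the 2 smallest p in each role group and the 3 widest ranges. Of other pathway lists, up to 3 genes with the smallest unadjusted p under 0.05 were named, with every ligand that had a count. A gene listed under 2 symbols was counted once, which left 146 pathway genes of 147 listed. Positions came from GENCODE M21 on mm10, promoters from RefSeq on GRCm38.p6. Near-identical copies were searched with blastn 2.17.0+ at 95% identity over 300 bases, a length chosen after seeing shorter matches to repeats. Nothing in the labels says that libraries came from separate mice, so p-values measure the spread between these tumours. Reads carried no molecular identifiers. A gene of the receptor list is counted there but not reported here by its own values.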

Additional observations from a re-analysis of the deposited data

Results flagged for a closer look

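Within groups of 5 tumours, single tumours stood apart from the rest by Dixon's gap test (critical value 0.71) in 7 of the 78 member and group pairs searched. The nominal rate of the test gives about 3.90. The share of all genes tested that this rule sets apart was not counted, so the 7 cannot be read as an excess among the members. All values here are log2 CPM. Irf8 was 2.57 in KPG1 5 and 3.09 to 3.27 in the other KPG1 tumours. Mx1 was 5.13 in KP 2 and 3.04 to 3.53 in the other KP tumours, and it was 0.88 in KPG1 1 and 2.90 to 3.61 in the other KPG1 tumours. In KP 5, 3 neighbouring genes on chromosome 3 were low together, Gbp2 at 1.91 (3.72 to 4.21 in the other KP tumours), Gbp3 at 1.00 (2.38 to 2.88) and Gbp5 at 0.12 (1.48 to 1.92). Irgm1 was 3.55 in KP 1 and 4.67 to 4.95 in the other KP tumours.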

How the results depend on the processing

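The number of members called lower in KPG1 was 0 in the main fit, 2 with DESeq2, 1 with a weight per library and 0 to 2 over the fits that left out 1 library, with 2 only without KP 5. Other pathway genes called lower numbered 1 with DESeq2 and 0 in all other fits run. No fit called a member or another pathway gene higher. The log2 fold change of Slc2a1 was -1.01, and it passed the threshold with DESeq2 (-1.04), a weight per library (-1.13), without KP 5, and with KP 1 and KP 5 left out together (-1.29); it ranged from -1.14 to -0.92 over the fits that left out 1 library. The median log2 fold change of the members ran from -0.25 with KP 1 and KP 5 left out together to 0.08 with sample number as covariate. Of 310 alternative values for the 16 named members, 296 kept their direction and side of the threshold, 5 passed it and 9 changed sign. With sample number as covariate Usp18 was 0.36, Psmb8 -0.42, Tap2 -0.18 and Cd274 0.08. Psmb8 was -0.14 with edgeR and -0.15 with DESeq2, and over the fits that left out 1 library it ran from -0.31 (without KP 1) to 0.46, also below 0 without KPG1 1 (-0.04). Tap2 ran from -0.03 (without KP 1) to 0.51. The cause of these changes was not tested.

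Same-numbered tumours did not deviate together (correlations -0.161 to 0.076, and 1 of 5 KP tumours correlated best with its own number). These values give no sign that the numbers pair the samples. They cannot exclude a pairing that leaves little trace beside the differences between tumours. With the replicate as a block no member was called, the median was -0.03, and Irf8 had a log2 fold change of -0.87 (adjusted p 0.219) and Slc2a1 of -1.01 (adjusted p 0.176).

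The interferon ligands, at no more than 4 counts per library, lie at the limit of this depth. The least counted member, Oas3, had 438 counts over all libraries.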
